A study of Mus musculus with 70 samples.

Results

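The data described here are the transcriptomes of lung ST2+ CD44hi and lung ST2- CD44hi regulatory T cells (Tregs), sorted from the same 5 mice. The 10 libraries were all those of these populations with over 1000000 counts, out of 70 libraries in the series, of which 67 passed that limit. All mice were male and carried the Foxp3-YFP-cre allele (Foxp3tm4(YFP/icre)Ayr), so that every group, controls included, came from animals in which the Foxp3 locus also drives YFP and Cre, and Tregs were sorted by the reporter. The labels give no treatment, and the animals were aged 16.6, 17.1, 17.4, 18.1 and 18.6 weeks (mouse 1 to mouse 5). Live CD45.2+ CD4+ YFP+ cells without CD8 and CD11b, among other exclusions, were sorted after magnetic enrichment of CD4+ cells, 220 cells per lung library, and CD44lo Tregs of the same lungs formed a further group of 5 libraries. The series also holds ST2+ and ST2- CD44hi Tregs of spleen, blood, visceral adipose tissue (VAT), colon and skin from these mice. The question was in what the ST2+ Tregs of the lungs differ from the ST2- effector Tregs beside them. The sort for sequencing used no intravascular label, so the libraries can hold Tregs of the lung vessels as well as of the tissue. Lungs were perfused before processing. In a separate experiment of the study, an injected CD45 antibody stained most lung Tregs, with or without ST2. The study takes such staining to mark cells within or near the vasculature.

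Tregs restrain immune responses, and their identity depends on the transcription factor Foxp3. High CD44 marks activated or effector Tregs, whereas CD44lo Tregs are central, recirculating cells. ST2, encoded by Il1rl1, is the receptor for the alarmin IL-33, which barrier and stromal cells release on damage. With its co-receptor IL-1RAP it signals through MyD88 and IRAK kinases to NF-kB and AP-1. In mucosal and adipose tissues ST2+ Tregs are known for dependence on Gata3 and for making the repair factor amphiregulin.

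Levels are given as CPM, read counts scaled to a library total of 1000000 and by trimmed-mean-of-M-values (TMM) factors, always in the order of mouse 1 to mouse 5. Library totals were 1524842 to 2354863 counts in ST2+ and 1559367 to 2453648 in ST2- Tregs, with 13761 to 15056 and 13160 to 15219 genes detected. Foxp3 was present in all 10 libraries at 172 to 213 CPM in ST2+ and 133 to 167 CPM in ST2- Tregs, as were Cd4 (316 to 481 and 300.1 to 490.3) and Cd3e (432 to 504 and 487 to 558), so that the Treg label was met in each. Il1rl1 (chr1:40429570-40465415, GRCm38), the gene of the sorted protein, had 871, 907, 897, 938 and 766 CPM in ST2+ and 0, 3.91, 9.49, 7.31 and 3.96 CPM in ST2- libraries. That difference checks the sort and is not a result. In the first principal component of the 15 lung libraries, which held 30.2% of the variance, ST2+ libraries lay at 46.9 to 56.0, ST2- libraries at 9.2 to 27.9 and CD44lo libraries at -80.7 to -63.7. The ST2+ library of mouse 1 stood apart on the second component (9.38%), at 93.5 where the other ST2+ libraries lay at -3.7 to 12. The number of DEGs is given below with and without it, and the named genes that lost their call without it are listed there. Spearman correlation between libraries had a median of 0.943 within ST2+, 0.952 within ST2-, and 0.938 between ST2+ and ST2- Tregs.

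**Figure D1:**
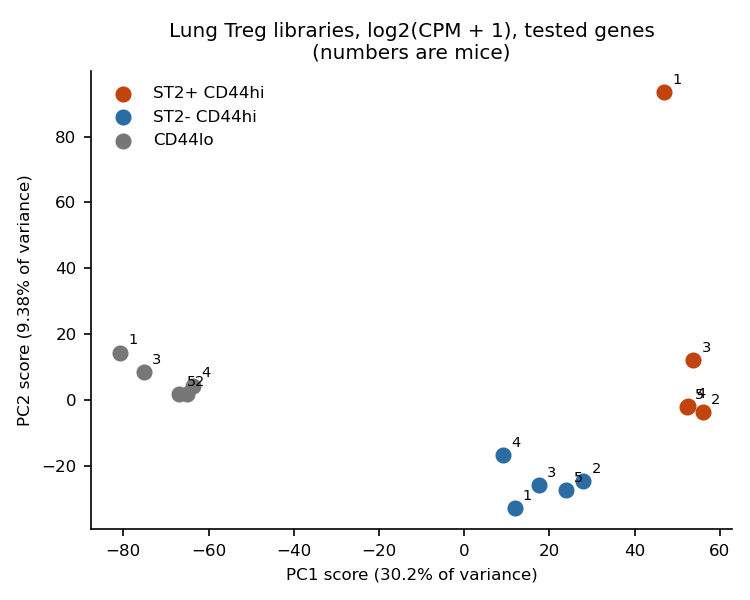
Principal components of the 15 lung Treg libraries over the 13173 tested genes, on log2(CPM + 1), with PC1 (30.2% of variance) on the x axis and PC2 (9.38%) on the y axis, 1 point per library and the mouse number beside it. ST2+ libraries lie at the right, ST2- libraries between them and the CD44lo libraries, and the ST2+ library of mouse 1 lies alone at a PC2 score of 93.5.

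Of 13173 protein-coding genes tested, 103 (0.782%) were differentially expressed (DEGs, fold change of at least 1.5 and an adjusted p of at most 0.05). ST2+ Tregs had 66 genes higher (0.501% of those tested) and 37 lower (0.281%). The higher genes included the transcription factor Gata3, the inhibitory receptors Klrg1 and Cd200r1, the atypical NF-kB inhibitors Nfkbiz and Nfkbid, the leukotriene B4 receptor Ltb4r1 and the repair factor Areg. The lower genes included the follicular homing receptor Cxcr5 and the quiescence factors Klf2, Foxo1 and Foxp1. Of the higher genes 51 differed by at least 2-fold and 21 by at least 4-fold, with a median log2 fold change of 1.5, and of the lower genes 21 and 9, with a median of -1.11. The median over all tested genes was 0, and 48.7% of them had higher fitted values. The gene lists used below were chosen with earlier results of these data known. Their counts are to be read beside the shares of all tested genes given here. In 61 of the 66 genes ST2+ exceeded ST2- in each of the 5 mice (5.96% of all tested genes), and the CPM ranges of the groups did not overlap in 60 of them (2.04% of all tested genes). All 37 lower genes were lower in each of the 5 mice (5.64% of all tested genes), 36 of them without overlap (1.61%). These counts follow in part from the call itself. As these are bulk libraries, fewer cells with a transcript and less of it per cell cannot be told apart. Nothing says that the sorts of 1 mouse were repeated, so each mouse gave 1 sample per population.

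The number of DEGs depended on single mice. It was 81 without the ST2+ library of mouse 1 (58 higher and 23 lower), among them 53 of the 66 and 22 of the 37 genes. Higher genes named below that lost their call there were Ier5, Pcyt1a, Itgb3, Egr3, Pim1, Tnfrsf9, Clcn3, Sdc4 and Padi2. Lower genes named below that lost it were Ly6c2, Igfbp4, Ugcg, Usp18, Pvr, Mrps6 and Zmym1. Without mouse 1 or 2 in all groups the number of DEGs was 82 and 81, and without mouse 3, 4 or 5 it was 35, 39 and 51. Such fits also have fewer libraries, so that lost power and the mouse left out cannot be told apart. Without the ST2- library of mouse 3 or of mouse 5 the number was 66 each time. In 15 analyses that each left out 1 mouse or 1 of the 10 libraries, 17 higher genes (Il1rl1, Gata3, Tent5a, Samsn1, Cd200r1, Klrg1, Nfkbiz, Lyn, Gadd45b, Pcsk1, Ltb4r1, Ero1l, Fgl2, Fam110a, Cish, Cxcl2 and Il10ra) and 6 lower genes (Cxcr5, Ift80, Tubb2a, Slfn1, Trim59 and St8sia1) kept their call every time. For other DEGs the number of these 15 analyses in which the call was kept is given with the gene.

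Gata3 (chr2:9857078-9890034), the zinc finger factor of type 2 lymphocytes, had 481, 534, 456, 417 and 387 CPM in ST2+ and 181, 182, 193, 139 and 182 CPM in ST2- Tregs. Every ST2+ library exceeded every ST2- library (log2 fold change 1.38, SE 0.13, adjusted p = 5.01e-11, 2.59-fold). Of 20 transcription factors known from tissue Tregs, Gata3 and the glucocorticoid receptor Nr3c1 were DEGs (10%), 19 had higher and 1 lower fitted values, and the median log2 fold change was 0.57. Nr3c1 ranged from 519 to 807 CPM in ST2+ and from 306 to 438 in ST2- libraries (log2 fold change 0.72, SE 0.18, adjusted p = 0.0277, call kept in 6 of 15). Pparg, the lipid-sensing receptor of adipose Tregs, was at 53.8, 44.5, 50.2, 62.9 and 76.4 CPM in ST2+ and 3.88, 6.52, 0, 2.09 and 3.08 CPM in ST2- Tregs without overlap, and missed the threshold (log2 fold change 4.25, SE 1.14, adjusted p = 0.0504), which it passed with the mouse as a block (adjusted p = 0.0431). The other members missed it too: Bhlhe40 (638 to 1010.5 against 423 to 561 CPM, log2 0.75, adjusted p = 0.138), Prdm1 (0.95, adjusted p = 0.356), Id2 (0.62, adjusted p = 0.357), Rora (0.58, adjusted p = 0.465), Batf (0.31, adjusted p = 0.545), Maf (0.31, adjusted p = 0.867) and Irf4 (0.27, adjusted p = 1).

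NF-kB dimers are held in check by IkB proteins, and the nuclear IkB members Nfkbiz (IkB-zeta) and Nfkbid (IkB-NS) bind NF-kB subunits on chromatin and adjust the genes they control. Both were DEGs. Nfkbiz had 796, 843, 739.6, 762 and 664 CPM in ST2+ and 343, 358, 322, 335 and 345 CPM in ST2- Tregs (log2 fold change 1.16, SE 0.18, adjusted p = 5.03e-05), and the lowest ST2+ library was well above the highest ST2- one. Nfkbid (chr7:30421732-30428746) had 501, 585, 555, 711 and 449 CPM against 252, 249, 218, 317 and 293 CPM (log2 fold change 1.07, SE 0.23, adjusted p = 0.00416, call kept in 14 of 15, and lost without mouse 4). Map3k8 (TPL2), the kinase that links NF-kB1 p105 to ERK, had 147, 158, 164, 186 and 150.3 CPM against 29.8, 82.9, 90.8, 76.2 and 63.4 CPM (log2 fold change 1.23, SE 0.30, adjusted p = 0.02, kept in 8 of 15). These were the 3 DEGs (13.6%) among 22 NF-kB subunits and feedback genes. The median log2 fold change of the list was 0.36, and 18 members had higher fitted values (48.7% of all tested genes). Of the members, 6 were higher without overlap (2.04% of all tested genes). Among the subunits, Nfkb1 was at 301 to 394 CPM in ST2+ and 191 to 258 CPM in ST2- libraries (log2 fold change 0.66, SE 0.18, adjusted p = 0.0689), and passed with the mouse as a block (adjusted p = 0.0165). The remaining subunits missed the threshold, with log2 fold changes of 0.55, adjusted p = 0.251 for Rel, 0.49, adjusted p = 0.526 for Nfkb2, 0.33, adjusted p = 0.813 for Relb and 0.08, adjusted p = 0.998 for Rela. So did the feedback inhibitors Nfkbia (0.44, adjusted p = 0.172) and Tnfaip3 (0.23, adjusted p = 0.721).

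NF-kB, AP-1 and GATA factors are the usual partners of ST2 signalling and of Gata3. The 250 bases before each RefSeq start of the DEGs were therefore searched on both strands. The motifs were the consensus kappaB motif, the AP-1 motif (TGAGTCA or TGACTCA) and the GATA motif AGATAA. A gene with several starts was counted if any of them had the motif. RefSeq promoters (GRCm38.p6) were matched for 48 of the 66 higher and 29 of the 37 lower DEGs. A kappaB motif was found in 9 of the 48 (18.8%; Ccrl2, Cxcl2, Fosl2, Nfkbid, Ccr3, Cxcl3, Sdc4, Tnfrsf9 and Padi2) and in 2 of the 29 (6.9%; Slfn1 and Pde4b), beside 5.57% of 10357 tested genes with a promoter and 3.9% of all 32851 promoters. The AP-1 motif was in 5 of the 48 (10.4%) and in 0 of the 29, beside 3.86% of tested genes and 4.46% of all promoters, and AGATAA in 6 (12.5%) and 3 (10.3%), beside 7.39% and 9.99%. These shares describe letters in a window and were not tested. Shares of genes count a motif at any start, whereas those of all promoters count each start by itself. The Nfkbid stretch below lies inside the annotated gene, before a RefSeq start further along it. The kappaB stretches of 5 higher DEGs and the GATA stretch of Il1rl1 are shown so that the motifs can be compared, 5′ to 3′ on the strand of the gene, with the motif in capitals (in Ccr3 the motif reads forward on the opposite strand):
Nfkbid, chr7:30422165-30422204, gene strand +: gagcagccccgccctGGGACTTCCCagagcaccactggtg
Cxcl2, chr5:90903787-90903826, gene strand +: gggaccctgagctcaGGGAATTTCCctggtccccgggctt
Tnfrsf9, chr4:150927941-150927980, gene strand +: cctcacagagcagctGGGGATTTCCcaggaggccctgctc
Ccrl2, chr9:111057550-111057589, gene strand -: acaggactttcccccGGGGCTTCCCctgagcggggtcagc
Ccr3, chr9:124021777-124021816, gene strand +: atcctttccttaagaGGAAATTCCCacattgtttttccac
Il1rl1, chr1:40429338-40429373, gene strand +: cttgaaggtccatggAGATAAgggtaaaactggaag

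Immediate early genes are switched on within minutes of a signal and encode AP-1 and EGR factors and feedback regulators. Of 34 tested, 7 were DEGs, all higher in ST2+ Tregs (20.6%, beside 0.501% of all tested genes). Higher fitted values were found in 27 (48.7% of all tested genes), and 13 were higher without overlap (2.04% of all tested genes). The median log2 fold change was 0.71. Gadd45b, a stress sensor of the p38 pathway, had 445, 461, 435, 603 and 362 CPM in ST2+ and 93.2, 142, 161, 175 and 88 CPM in ST2- Tregs (log2 fold change 1.80, SE 0.30, adjusted p = 0.000121). Atf3, a stress-induced AP-1 partner, had 107, 168, 91.4, 209 and 169 CPM against 25.9, 46.3, 16.1, 34.4 and 31.2 CPM (log2 fold change 2.28, SE 0.50, adjusted p = 0.00675, kept in 13 of 15). Fosl2, an AP-1 subunit, had 184, 114, 206, 225 and 137 CPM against 75.1, 45, 47, 72.5 and 22 CPM (log2 fold change 1.73, SE 0.36, adjusted p = 0.00364, kept in 14 of 15). In all 3 genes every ST2+ library exceeded every ST2- library. Smaller differences were found for Gem, a small GTPase (log2 1.07, adjusted p = 0.0367, 4 of 15), Zfp36l1, an mRNA decay factor (0.76, adjusted p = 0.00364, 13 of 15) and Ier5 (0.72, adjusted p = 0.0206, 6 of 15). Egr3 was at 11.5, 11.1, 1.34, 0 and 0.427 CPM in ST2+ Tregs and had no count in the 5 ST2- libraries, which makes it at least 16.3-fold higher against a floor of 3 counts over the group. It overlapped at 0, its call was kept in 3 of 15, and it was lost with the mouse as a block (adjusted p = 0.0614).

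**Figure D2:**
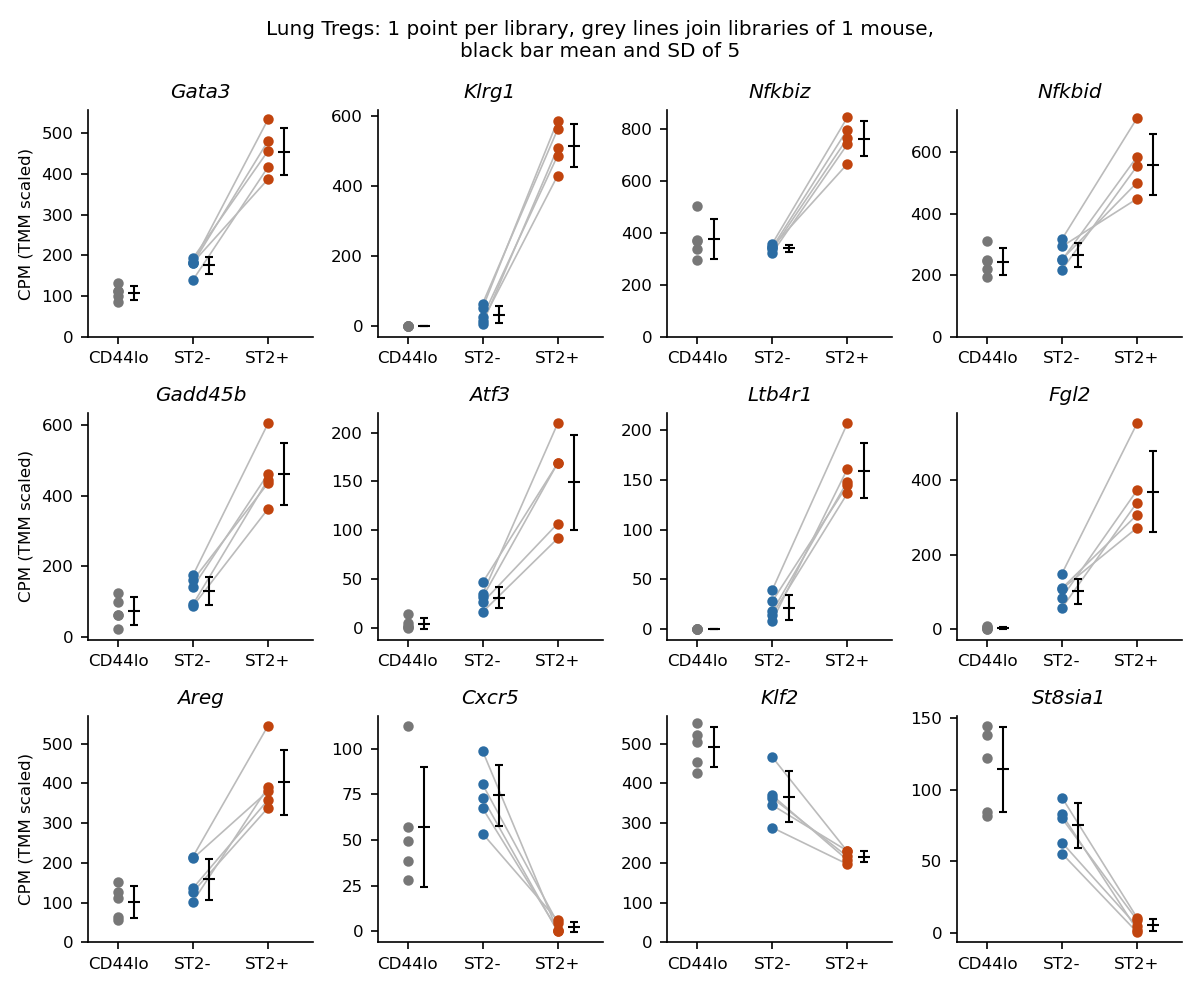
TMM-scaled CPM (y axis) of 12 genes in the CD44lo, ST2- CD44hi and ST2+ CD44hi lung libraries (x axis), 1 point per library, with grey lines between both CD44hi libraries of each animal and black bars for the mean and SD of 5. In each panel the ST2+ and ST2- points do not overlap, and Cxcr5, Klf2 and St8sia1 are the 3 genes that are lower in ST2+ Tregs.

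Chemokine and lipid receptors steer lymphocytes between tissues. Of 24 tested, 5 were DEGs higher and 1 lower in ST2+ Tregs (25.0%), with a median log2 fold change of 0.55. Ltb4r1 (BLT1), the high-affinity receptor for the leukocyte attractant leukotriene B4, had 207, 145, 148, 136 and 161 CPM in ST2+ and 39.5, 28.1, 17.7, 14.6 and 8.36 CPM in ST2- Tregs (log2 fold change 2.91, SE 0.49, adjusted p = 0.000178), and 0 to 0.525 CPM in CD44lo Tregs. Ccr3, the eotaxin receptor, had 67.5, 68.3, 70.4, 82.9 and 102 CPM against 5.82, 1.30, 16.1, 0.522 and 7.48 CPM (log2 fold change 3.57, SE 0.75, adjusted p = 0.00512, kept in 14 of 15, lost without mouse 5). Ccrl2, an atypical receptor that presents chemerin, had 209, 185, 185, 298 and 212 CPM against 51.8, 97.2, 75.9, 73.1 and 73.9 CPM (log2 fold change 1.55, SE 0.29, adjusted p = 0.00101, kept in 14 of 15, lost without mouse 4). In none of the 3 did the groups overlap. Ccr10, the receptor for epithelial chemokines, spread widely within ST2+ Tregs, at 6.17, 5.57, 87.4, 55.5 and 102 CPM against 0, 0.652, 4.13, 0.522 and 3.52 CPM (log2 fold change 4.72, SE 1.18, adjusted p = 0.0295, kept in only 2 of 15). The proton-sensing receptor Gpr65 was at 129 to 144 against 61.2 to 93.8 CPM (log2 0.92, adjusted p = 0.0158, 8 of 15). The lower receptor was Cxcr5 (chr9:44511787-44561877), which guides lymphocytes to B cell follicles. It had 0.882, 6.07, 0.448, 4.68 and 0 CPM in ST2+ and 67.3, 53.5, 98.6, 80.4 and 73 CPM in ST2- Tregs (log2 fold change -5.01, SE 0.73, adjusted p = 1.56e-05, 32.2-fold lower), so that ST2+ libraries were at or near 0 and ST2- libraries all above 50 CPM. Receptors that missed the threshold were Ccr2 (386 to 589 against 99.6 to 299 CPM, log2 1.18, adjusted p = 0.235), Ccr4 (0.90, adjusted p = 0.332), Ccr8 (0.74, adjusted p = 0.327) and Cxcr3 (178 to 330.4 against 363 to 476 CPM, -0.88, adjusted p = 0.414), although the groups did not overlap for Ccr2, Ccr4 and Cxcr3. The study lists all of these receptors among its lung DEGs, by another test (voom with quality weights). By flow cytometry it found CCR4 on more ST2+ than ST2- Tregs of the lungs, and no such difference there for CCR2.

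Among inhibitory and differentiation receptors 2 of 14 were DEGs (14.3%, median log2 fold change 0.22). Klrg1 (chr6:122270596-122282882), an E-cadherin-binding receptor of terminally differentiated lymphocytes, had 587, 431, 488, 509.6 and 562 CPM in ST2+ and 53.1, 15.7, 26.4, 7.83 and 65.1 CPM in ST2- Tregs (log2 fold change 3.93, SE 0.55, adjusted p = 3.25e-06, 15.2-fold), against 0 to 2.10 CPM in CD44lo Tregs. ST2- libraries spread from 7.83 to 65.1 CPM, and all lay far below the ST2+ libraries. Cd200r1, a receptor for the inhibitory ligand CD200, had 221, 234, 293, 320.3 and 249 CPM against 71.2, 62.6, 64.4, 81.9 and 77.9 CPM (log2 fold change 1.88, SE 0.26, adjusted p = 2.82e-06). Of 26 TNF receptor superfamily and costimulatory genes only Tnfrsf9 (4-1BB) was a DEG (3.85%, median 0.21). Its groups overlapped, at 282, 372, 247, 254 and 274 CPM against 88.6, 308, 112, 106 and 92 CPM, since the ST2- library of mouse 2 was high (log2 fold change 1.02, SE 0.27, adjusted p = 0.0477, kept in 2 of 15). Of 14 integrins Itgav and Itgb3, the chains of the vitronectin receptor, were DEGs (14.3%, median 0.09). Itgav was at 485 to 595 against 155 to 283 CPM (log2 fold change 1.16, SE 0.29, adjusted p = 0.0295, kept in 5 of 15) and Itgb3 at 158 to 212 against 64.7 to 100.2 CPM (log2 1.15, adjusted p = 0.0266, 6 of 15). Itgae (CD103), which binds epithelial E-cadherin, was at 332, 527, 403, 293 and 508 CPM against 107, 279, 183, 106 and 261 CPM. It was higher in ST2+ cells of all 5 mice without overlap, but missed the threshold (log2 fold change 1.14, SE 0.55, adjusted p = 0.465). By flow cytometry the study found that CD103 differed between ST2+ and ST2- Tregs of the lungs. There the ST2- Tregs were not limited to CD44hi cells.

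Of 25 cytokine receptors 1 was a DEG (4.0%, median 0.05). This was Il10ra, the ligand-binding chain of the IL-10 receptor, with 579, 478, 506, 379.8 and 481 CPM in ST2+ and 219, 137, 205, 111 and 256 CPM in ST2- Tregs (log2 fold change 1.39, SE 0.28, adjusted p = 0.00267). The study, by voom with quality weights, also lists Il6ra, Il9r, Il18rap and Ifngr2 among its lung DEGs, which were not called here. Of 21 STAT and SOCS pathway genes Cish and Pim1, both targets of STAT5 downstream of IL-2, were DEGs (9.52%, median 0). Cish was at 351, 377, 353, 374 and 330.1 CPM against 177, 231, 176, 191 and 175 CPM (log2 fold change 0.91, SE 0.17, adjusted p = 0.000778), and Pim1 at 119 to 177 against 73.1 to 95.9 CPM (log2 0.69, adjusted p = 0.0399, kept in 2 of 15). Lyn, a Src family kinase, had 80.3, 87.5, 63.6, 68.9 and 93.9 CPM against 22.6, 24.1, 9.90, 2.61 and 5.72 CPM (log2 fold change 2.64, SE 0.41, adjusted p = 5.03e-05), and 0 to 0.502 CPM in CD44lo Tregs. Samsn1, a signalling adaptor, was at 461 to 644 against 225 to 369.9 CPM (log2 0.99, adjusted p = 2.09e-06). In the list of the IL-33 receptor pathway Il1rl1 itself, which chose the cells, was the only 1 of 20 called (5.0%), and the median log2 fold change was -0.14. The co-receptor Il1rap was at 10.7 to 42.3 CPM in ST2+ and 20.9 to 51.8 CPM in ST2- Tregs (log2 -0.66, adjusted p = 0.654) and the adaptor Myd88 at 70.2 to 110.2 and 95.9 to 123 CPM (-0.32, adjusted p = 0.794).

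Among secreted and enzymatic effectors of suppression and repair 5 of 24 were DEGs, all higher in ST2+ Tregs (20.8%, median log2 fold change 0.47). Areg, the epidermal growth factor receptor ligand amphiregulin, had 359, 380.5, 390.4, 545 and 339 CPM in ST2+ and 137, 211, 103, 216 and 127 CPM in ST2- Tregs (log2 fold change 1.34, SE 0.31, adjusted p = 0.0117, 2.54-fold, kept in 11 of 15), and every ST2+ library was above every ST2- library. Fgl2, a secreted suppressor of dendritic cells, had 272, 552, 372, 339.7 and 307 CPM against 108, 149, 85, 57.4 and 110.0 CPM (log2 fold change 1.86, SE 0.34, adjusted p = 0.00061). Pcsk1, a prohormone convertase, had 47.2, 50.6, 71.3, 42.8 and 33.3 CPM and was at 0 in 3 of 5 ST2- libraries (0, 0, 2.48, 0 and 0.440 CPM, log2 fold change 6.02, SE 0.97, adjusted p = 0.000169). It had no count in CD44lo Tregs. Metrnl, the secreted meteorin-like factor, was at 103 to 207 against 31.4 to 60.0 CPM (1.86, adjusted p = 0.0152, 10 of 15) and Ctla2a, a cathepsin inhibitor, at 185 to 290.2 against 56.8 to 143 CPM (1.37, adjusted p = 0.00267, 13 of 15). Among 12 helper cell factors and cytokines Il4 was the only DEG (8.33%, median 0.19), with 18.1, 9.11, 3.14, 0 and 4.70 CPM in ST2+ Tregs and no count in the 5 ST2- libraries. That is at least 24.1-fold higher against the floor of 3 counts, rests on 77 counts, and overlapped at 0 in mouse 4 (6.87, adjusted p = 0.0154 on the fitted log2 scale, kept in 7 of 15). The helper factor Tbx21 (0 to 38.9 against 16.2 to 58.6 CPM, -1.05, adjusted p = 0.858) missed the threshold.

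**Figure D3:**
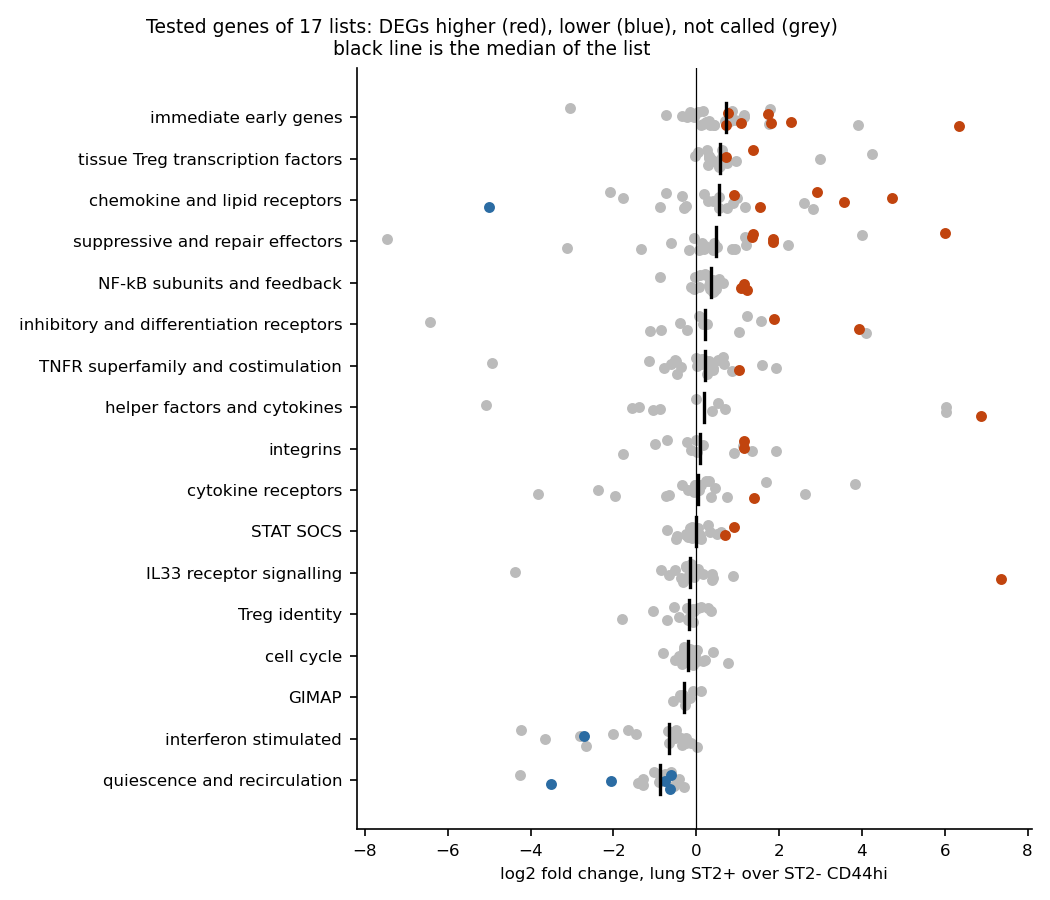
Fitted log2 fold change of lung ST2+ over ST2- CD44hi Tregs (x axis) for each tested gene of 17 gene lists (y axis), with red for DEGs higher and blue for DEGs lower in ST2+ Tregs, grey for genes not called and a black line for the list's median. Medians run from -0.88 for quiescence and recirculation to 0.71 for immediate early genes, and the values beyond about 5 in size belong to genes with low or no counts in a group.

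Of the other DEGs with the smallest adjusted p, Tent5a, a poly(A) polymerase, had 290.2, 309, 313, 339 and 205 CPM in ST2+ and 91.9, 127, 69.3, 84 and 66 CPM in ST2- Tregs (log2 fold change 1.74, SE 0.22, adjusted p = 6.44e-07), and Ero1l, an oxidase of protein folding in the endoplasmic reticulum, had 155 to 218 against 61.6 to 93.4 CPM (1.17, adjusted p = 0.000401). Some further genes are named after their values were seen. Cxcl2 and Cxcl3, attractants of neutrophils through CXCR2, lie in the same stretch of chromosome 5 as Areg, 114270 bases apart and 233660 bases from Cxcl2 to Areg, and all 3 were higher in ST2+ Tregs. Cxcl2 had 162, 130.0, 49.8, 70.2 and 109 CPM against 3.88, 1.96, 0.413, 4.17 and 14.5 CPM (log2 fold change 4.33, SE 0.85, adjusted p = 0.00213). Cxcl3 had 16.3, 0, 3.59, 80.2 and 7.26 CPM and no count in ST2- Tregs (at least 57-fold, 11 of 15), and overlapped at 0 in mouse 2. Higher DEGs with roles in lipid metabolism included Dgat2, which makes triglycerides (93.9, 111, 94.6, 100.3 and 59.4 against 3.88, 15, 13.2, 6.79 and 5.28 CPM, 3.37, adjusted p = 0.00891, 14 of 15), Hilpda, a lipid droplet protein (0.98, adjusted p = 0.011, 10 of 15), Pcyt1a of phosphatidylcholine synthesis (2.09, adjusted p = 0.0216, 5 of 15) and the sterol-binding Osbpl3 (1.08, adjusted p = 0.00675, 13 of 15). Ugcg, which makes glucosylceramide (-1.07, adjusted p = 0.0253, 7 of 15), and the lysosomal lipase Lipa (-0.83, adjusted p = 0.0361, 4 of 15) were lower. No list of lipid genes was fixed or tested, so that no direction is given for lipid genes as a group.

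Quiescent and recirculating T cells are held by KLF2 and FOXO1, which drive the egress receptor S1pr1 and the lymph node homing receptor Ccr7. Of 19 such genes 5 were DEGs, all lower in ST2+ Tregs (26.3%, beside 0.281% of all tested genes). None had a higher fitted value, beside 48.7% of all tested genes. Of the 19, 12 were lower without overlap (1.61% of all tested genes), and the median log2 fold change was -0.88. Klf2 had 229, 230.2, 216, 207 and 197 CPM in ST2+ and 466, 345, 364, 369.5 and 289 CPM in ST2- Tregs (log2 fold change -0.76, SE 0.17, adjusted p = 0.00675, kept in 12 of 15). Foxo1 had 252, 278, 191, 199 and 316 CPM against 333, 404, 411, 386 and 372 CPM (log2 fold change -0.62, SE 0.14, adjusted p = 0.00694, kept in 11 of 15), and Foxp1, another forkhead factor of resting T cells, 257 to 327 against 374 to 489 CPM (-0.61, adjusted p = 0.014, 7 of 15). For these factors all ST2+ libraries were below all ST2- libraries, by less than 2-fold. Igfbp4, a marker of naive T cells, differed more, at 11.9, 10.6, 23.3, 8.69 and 16.7 CPM against 241, 85.5, 178, 197 and 119 CPM (log2 fold change -3.50, SE 0.86, adjusted p = 0.0216, kept in 6 of 15). Actn1, the cytoskeletal linker alpha-actinin, was at 3.14 to 17.2 against 25.2 to 48.3 CPM (-2.06, adjusted p = 0.0319, 4 of 15). Members that missed the threshold included Tcf7 (233 to 342 against 492 to 738 CPM, -1.01, adjusted p = 0.132), Satb1 (129.6 to 177 against 307 to 442 CPM, -1.28, adjusted p = 0.0993), Ccr7 (-0.88, adjusted p = 0.447), S1pr1 (-0.53, adjusted p = 0.23), Lef1 (-0.49, adjusted p = 0.314) and Bach2 (-1.33, adjusted p = 0.203). Ccr7 is among the lung DEGs of the study, by voom with quality weights.

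Other lower DEGs were outside the lists. St8sia1, the GD3 ganglioside synthase, had 2.21, 0.506, 8.96, 4.68 and 10.7 CPM in ST2+ and 82.8, 55.5, 80.1, 63.2 and 94.6 CPM in ST2- Tregs (log2 fold change -3.77, SE 0.75, adjusted p = 0.0023). Tubb2a, a beta-tubulin, had 6.17, 9.61, 15.2, 22.1 and 22.2 CPM against 82.2, 71.1, 97.8, 85.6 and 63.4 CPM (log2 fold change -2.41, SE 0.43, adjusted p = 0.000401), and Slfn1, a Schlafen family gene of T cell quiescence, 46.7, 76.4, 63.2, 55.5 and 37.6 CPM against 126, 167, 179.9, 185 and 153 CPM (log2 fold change -1.54, SE 0.27, adjusted p = 0.000419). In each of the 3 the highest ST2+ library lay below the lowest ST2- library. Gm14085 (0 to 19.8 against 47.2 to 121 CPM, -3.96, adjusted p = 0.00156, 14 of 15), Rab3ip, a Rab exchange factor (-1.50, adjusted p = 0.00151, 13 of 15), Chchd10, a mitochondrial protein (-1.71, adjusted p = 0.0043, 14 of 15), and Igtp, an interferon-induced GTPase (-0.69, adjusted p = 0.00448, 13 of 15), were lower too. Txnip, an inhibitor of thioredoxin and of glucose uptake, had 297, 242, 264, 289 and 374 CPM against 628, 416, 509, 444 and 462 CPM (log2 fold change -0.75, SE 0.15, adjusted p = 0.00364, kept in 14 of 15). Ly6c2, a surface antigen of circulating T cells and monocytes and named after its values were seen, had 12.3, 39.1, 58.2, 15.7 and 8.80 CPM in ST2- Tregs and 1 count in all ST2+ libraries, and was 287-fold lower (95% interval 51.1 to 11400.0) by the summed counts (10 of 15). The interval covers counting error only. Pik3ip1, an inhibitor of PI3K, was also seen among the lower genes (-1.10, adjusted p = 0.00694, 12 of 15). Ift80 (45, 181, 134, 91.6 and 98.6 against 317, 355, 366, 389 and 387 CPM, log2 fold change -1.72, SE 0.30, adjusted p = 0.000282), a subunit of intraflagellar transport, Trim59, a ubiquitin ligase (64.4 to 146 against 174 to 241 CPM, -0.95, adjusted p = 0.00149), and the condensin subunit Smc4 (-0.61, adjusted p = 0.0182, 8 of 15) adjoin each other on chromosome 3. Ift80 and Smc4 are 167 bases apart on opposite strands and Smc4 and Trim59 664 bases, and 3 of the 37 lower DEGs therefore came from 1 locus. The annotated genes do not overlap, and whether reads of 1 were counted for another was not tested.

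None of 15 Treg identity genes was a DEG, beside 0.782% of all tested genes. At that share, 0 DEGs in a list of 15, 30 or 8 genes is no result about the list. The median log2 fold change of the identity genes was -0.18, and 11 had lower fitted values. Of them 1 was higher and 3 were lower without overlap (2.04% and 1.61% of all tested genes). Foxp3 had 199.8, 172, 195, 213 and 177 CPM in ST2+ and 164, 133, 139, 167 and 147 CPM in ST2- Tregs (log2 fold change 0.35, SE 0.13, adjusted p = 0.235), and although the libraries did not overlap it missed the thresholds for fold change and adjusted p. Ikzf2, encoding Helios, was at 1050.4 to 1339 against 759.7 to 997 CPM (0.31, adjusted p = 0.5), Lrrc32 (GARP) at 145 to 327 against 279.7 to 671 CPM (-1.04, adjusted p = 0.26) and Gpr83 at 16.6 to 31.3 against 64.2 to 106 CPM (-1.80, adjusted p = 0.0824). None of 30 cell cycle genes was a DEG (median -0.20, 24 with lower fitted values), and Mki67 was at 113, 195, 113, 168 and 159 CPM against 95.1, 234, 135, 74.6 and 230.1 CPM with full overlap (-0.04, adjusted p = 1). By flow cytometry the study found Ki-67 protein in more ST2+ than ST2- Tregs of the lungs. There the ST2- Tregs were not limited to CD44hi cells. None of 8 GIMAP genes was a DEG (median -0.31, 7 with lower fitted values), and 2 were lower without overlap. Of 19 interferon-stimulated genes Usp18 was a DEG (5.26%), lower in ST2+ Tregs at 5.29, 25.3, 6.28, 19.4 and 13.7 CPM against 60.8, 89.4, 90.4, 138 and 77 CPM (log2 fold change -2.72, SE 0.73, adjusted p = 0.0483), with its call kept in 0 of 15. The list's median was -0.65, and 18 members had lower fitted values.

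Of the genes that the study named as marking ST2+ Tregs across tissues, Rab4a, a GTPase of receptor recycling, had 66.6, 41.5, 55.6, 76.2 and 59.4 CPM in ST2+ and 6.47, 11.1, 4.13, 5.74 and 15.8 CPM in ST2- lung Tregs (log2 fold change 2.78, SE 0.67, adjusted p = 0.0175, kept in 10 of 15). Ptpn13, a tyrosine phosphatase, had 325, 219.6, 310.2, 278 and 298 CPM against 61.5, 111, 115, 95 and 159 CPM (log2 fold change 1.40, SE 0.29, adjusted p = 0.00364, kept in 14 of 15). Rln3, which encodes relaxin-3, was higher in all 5 mice, at 101, 86, 94.1, 62.9 and 89.2 CPM against 65.4, 39.1, 41.3, 14.6 and 33 CPM, and missed the threshold (log2 fold change 1.17, SE 0.35, adjusted p = 0.0952). Tbc1d4, a regulator of glucose transporter traffic, was lower in all 5 mice without overlap, at 78.1, 116, 115, 91.6 and 67 CPM against 217, 174, 232, 243 and 276 CPM, and missed it as well (log2 fold change -1.29, SE 0.50, adjusted p = 0.295). The study called Rln3 in all tissues and Tbc1d4 in all but skin, by another test (voom with quality weights). That test gave 350 lung DEGs here, where edgeR gave 103. The list of these genes was chosen by the study on these samples, so its direction is not independent evidence.

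Markers of other cells of the lung were checked because some of them moved with the groups. Epcam, a surface molecule of epithelium that some T cells also carry, was a DEG at 68.8, 36.4, 69, 69.5 and 62.8 CPM in ST2+ and 0.647, 15.7, 14.4, 14.1 and 16.7 CPM in ST2- Tregs (log2 fold change 2.29, SE 0.51, adjusted p = 0.00958, kept in 12 of 15). Epcam itself counts in the sum of 15 epithelial markers, which is thus no separate measure of epithelial RNA. That sum was 136 to 191 CPM in ST2+ and 55.0 to 133 CPM in ST2- libraries. The defining epithelial genes were present in both, with Sftpc at 13.9 to 78.4 and 11.6 to 39.6 CPM and Scgb1a1 at 3.84 to 54.2 and 9.68 to 47 CPM, and neither was a DEG. The part of epithelial RNA in the Epcam result was not tested. Type 2 innate lymphoid cells share much of the ST2+ Treg profile, and 3 of 11 tested markers of theirs were DEGs (27.3%), namely Klrg1, Areg and Nmur1, the neuromedin U receptor. All 11 had higher fitted values in ST2+ Tregs (48.7% of all tested genes), and 5 were higher without overlap (2.04% of all tested genes). The median log2 fold change was 2.63. Nmur1 had 28.2, 8.60, 35, 6.02 and 68.3 CPM in ST2+ Tregs and 1 count in all ST2- libraries, and was 308-fold higher (95% interval 54.9 to 12200.0) by the summed counts (12 of 15). Summed ILC2 markers, Klrg1, Areg and Nmur1 among them, were 2050 to 2560 CPM against 852 to 1050 CPM. The defining cytokine Il13 was at 0 in all 10 libraries, and Calca was at 4.41, 35.4, 81.6, 80.2 and 44 CPM against 0, 1.30, 32.6, 9.39 and 0 CPM. The part of such cells in these 3 results was not tested. CD8 and CD11b served in the gate. Of the defining genes of the other types, Csf1r, Marco, Ncr1, Cd8a, Mcpt8, Fcer1a and S100a8 were at 0 in all 10 libraries, Cd79a was at 0 to 1.71 and 1.24 to 4.17 CPM, and Cpa3 at 0 to 0.506 and 0 to 1.24 CPM. Summed levels in ST2+ and ST2- libraries were 362 to 492 and 178 to 365 CPM for myeloid markers, 177 to 220 and 228 to 415 CPM for NK and CD8 markers, 631 to 684 and 639 to 767 CPM for B cell markers (mostly Ighm), 136 to 335 and 172 to 263 CPM for endothelium and stroma, 2.53 to 16.8 and 4.18 to 6.6 CPM for mast cells and basophils, 0 to 1.34 and 0 to 1.04 CPM for neutrophils and 0 to 18.4 and 0.44 to 12 CPM for erythroid cells. No tested gene of these lists was a DEG. Not tested were 7 of 8 neutrophil, 9 of 12 mast cell and basophil and 5 of 10 B cell markers, Ighm among the last. The same held for 4 of 22 myeloid, 3 of 9 NK and CD8 and 2 of 6 erythroid markers, so none of these could be called. Of 12 endothelial and stromal markers 9 had higher and 3 lower fitted values in ST2+ Tregs (median log2 fold change 4.36), while their sums overlapped. The ST2+ library of mouse 3 held endothelial transcripts, with Cldn5, Ramp2 and Kdr at 49.3, 51.1 and 21.1 CPM.

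**Figure D4:**
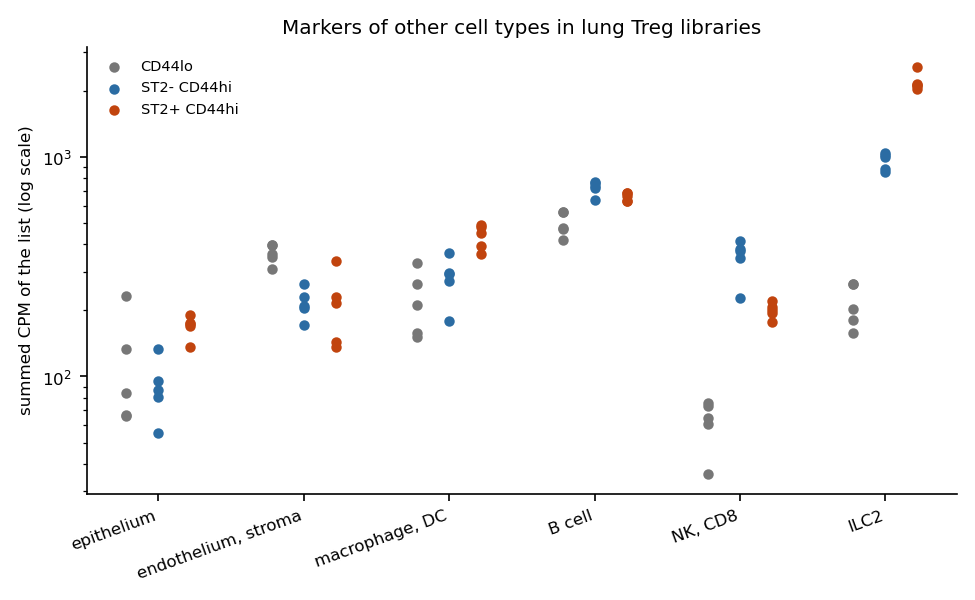
Summed TMM-scaled CPM (y axis, log scale) of marker lists of 6 other cell types (x axis) in the 15 lung libraries, 1 point per library, grey for CD44lo, blue for ST2- CD44hi and red for ST2+ CD44hi Tregs. ILC2 markers, which include genes of ST2+ Tregs, lie at 2050 to 2560 CPM in ST2+ and 852 to 1050 CPM in ST2- libraries. The epithelial markers, which include the DEG Epcam, lie at 136 to 191 and 55.0 to 133 CPM.

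The lung DEGs were then followed in spleen, blood and VAT of the same mice, where the groups had 5 libraries each except 4 of blood ST2+ Tregs. Some of those libraries came from fewer cells (55 to 220 in blood ST2+ and 93 to 220 in VAT ST2- Tregs). Of the 66 genes higher in lung ST2+ Tregs, 40 were also DEGs in VAT (60.6% of the lung and 24.0% of the 167 VAT genes, where 1.27% of tested genes were called higher), 31 in blood (47.0% of the lung and 10.5% of the 296 blood genes, 2.25% called higher) and 15 in spleen (22.7% of the lung and 36.6% of the 41 spleen genes, 0.311% called higher). Median log2 fold changes of the 66 genes were 1.03, 0.998 and 0.71 there. Il1rl1, Gata3, Cd200r1, Lyn, Ltb4r1 and Ctla2a were DEGs in all 3 other tissues. Gata3 had log2 fold changes of 1.38 in the lungs, 1.05 in spleen, 1.08 in blood and 1.40 in VAT, each with an SE of 0.13 to 0.14. Nfkbiz had 1.16 (adjusted p = 5.03e-05), 0.59 (adjusted p = 0.244), 0.24 (adjusted p = 0.554) and 1.16 (adjusted p = 1.42e-05) in the same order, and Nfkbid 1.07 (adjusted p = 0.00416), 0.44 (adjusted p = 0.988), -0.46 (adjusted p = 0.356) and 1.03 (adjusted p = 0.0021). Klrg1 had 3.93 (adjusted p = 3.25e-06), 3.24 (adjusted p = 0.000162), 5.33 (adjusted p = 1.85e-08) and 1.56 (adjusted p = 0.0528). The nuclear IkB genes were therefore called in lungs and VAT, and Klrg1 in lungs, spleen and blood. Calls in 1 tissue and not another are no test of a difference between them. By the study's methods, lungs and VAT were digested with collagenase, whereas spleen and blood were not. Magnetic enrichment was used for spleen and lungs only. Tissue and preparation thus differ together, and the part of preparation in these calls was not tested.

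Of the 37 lower genes, 17 were DEGs in blood (45.9% of the lung and 7.2% of the 236 blood genes, 1.79% called lower), 15 in VAT (40.5% and 6.15% of 244, 1.85% called lower) and only Cxcr5 in spleen, where it was the single lower DEG (0.00759%). Median log2 fold changes were -1.06, -0.87 and -0.55. Cxcr5 was thus lower in all 4 tissues. In none of the 3 other tissues were 13 higher genes (Tex2, Antxr2, Dgat2, Epcam, Rhoc, Il4, Gpr65, Clcn3, Fhl2, Itgav, Egr3, Tnfrsf9 and Padi2) and 13 lower genes (Txnip, Igtp, Klf2, Csrnp2, Ly6c2, Mpp1, Smc4, Igfbp4, Pvr, Lipa, Usp18, Mrps6 and Zmym1) called. The direction was shared by 63, 54 and 64 of the 66 higher genes in spleen, blood and VAT, and by 34, 35 and 32 of the 37 lower genes. Over all tested genes 47.8%, 45.7% and 47.0% were higher there and 47.3%, 48.1% and 50.5% lower. The 66 genes include Il1rl1, which the sort fixed.

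**Figure D5:**
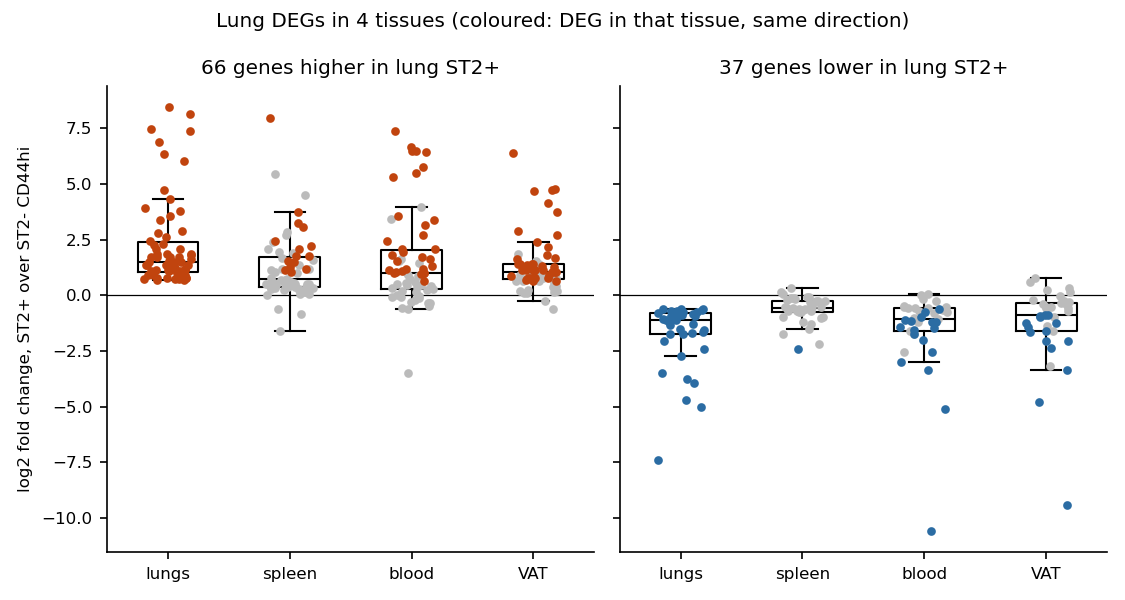
Fitted log2 fold change of ST2+ over ST2- CD44hi Tregs (y axis) of the 66 higher (left) and 37 lower (right) lung DEGs in lungs, spleen, blood and VAT (x axis), 1 point per gene, coloured where the gene was also a DEG in that tissue in the same direction, with boxes for the median and quartiles and whiskers to the furthest point within 1.5 times the box. Lung values were used to choose the genes. Medians of the higher genes are 1.5, 0.71, 0.998 and 1.03.

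The difference of the ST2 effect between tissues was tested directly. Between lungs and spleen no gene passed by edgeR (526 at an unadjusted p under 0.05), while DESeq2 called 27 and voom 20. Between lungs and blood 5 genes passed (0.038%), none of them a lung DEG. Between lungs and VAT 18 passed (0.137%), of which Txnip was the only lung DEG. Txnip was lower in ST2+ Tregs of the lungs (log2 -0.75 (SE 0.15, adjusted p = 0.00364)) and had a log2 fold change of 0.58 (SE 0.15, adjusted p = 0.0163) in VAT, where the fold change of 1.5 was not reached, and the difference was -1.33 (SE 0.22, adjusted p = 0.000992). The same call for Txnip was made in 9 of 12 other processing settings (adjusted p = 2.53e-06 to 0.155) and in 20 of 20 fits that left out a mouse or a lung library. The counts themselves moved with single mice. Against blood 0 genes passed without mouse 3, without mouse 4 or without the ST2- lung library of mouse 4, 1 without mouse 1 or without the ST2+ lung library of mouse 2, 2 without that of mouse 1 or of mouse 3, and 3 on leaving out the ST2+ library of mouse 4 or 5, the ST2- library of mouse 1 or 3 or the CD44lo library of mouse 4. Against VAT 5, 6 and 8 passed without mice 2, 5 and 3, and 32 without mouse 1. For the other 102 DEGs no difference from spleen, blood or VAT passed by edgeR.

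Finally, the ST2- CD44hi libraries were set against CD44lo Tregs of the same lungs, a comparison that shares the ST2- libraries with the one above, so that values are given side by side only. Effector Tregs without ST2 differed from CD44lo Tregs in 729 genes (5.53%), 638 higher (4.84%) and 91 lower (0.691%). Of the 66 genes higher in ST2+ Tregs 24 were also called higher in ST2- over CD44lo Tregs and none lower, and of the 37 lower genes 6 were called lower and none higher. Klrg1 was at 0.875 ± 0.887, 33.6 ± 24.6 and 516 ± 62 CPM (mean ± SD, n = 5) in CD44lo, ST2- and ST2+ Tregs, Fgl2 at 3.52 ± 3.08, 102 ± 34 and 369 ± 109 CPM, and Gata3 at 108 ± 16.7, 175 ± 20.7 and 455 ± 57 CPM. These 3 genes stood in order from CD44lo over ST2- to ST2+ Tregs. Nfkbiz was at 374 ± 77.5, 340.5 ± 13.1 and 761 ± 66.7 CPM and Nfkbid at 244 ± 44.3, 266 ± 39.3 and 560.3 ± 99 CPM. For both, CD44lo and ST2- Tregs differed by less than the spread between libraries (log2 -0.14 (adjusted p = 0.798) and 0.12 (adjusted p = 0.882)), and ST2+ Tregs lay above both. Cxcr5 was at 57.2 ± 32.6, 74.6 ± 16.7 and 2.42 ± 2.76 CPM, low in ST2+ Tregs alone of the 3 groups.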

How the data were processed

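Tregs were sorted into lysis buffer, cDNA was made with SMART-Seq v4 and libraries with NexteraXT, and 58-base single reads were sequenced. The authors aligned reads to GRCm38 with STAR (2.4.2a, Ensembl 91) and counted them with HTSeq (0.4.1), and deposited raw counts per gene of each library (unit: counts, not normalized). The kit keeps no strand, so overlapping genes cannot be told apart. Libraries with over 1000000 counts were kept (67 of 70). The study's further limits on alignment and evenness of gene coverage were not applied here.

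TMM factors were computed over all 53465 gene IDs, and protein-coding genes (GENCODE M21) with at least 1 CPM in 10% of libraries were tested (13173). edgeR 4.0.16 fitted a quasi-likelihood model to all 14 groups without a mouse term, with contrasts for each comparison, Benjamini-Hochberg adjustment and two-sided p-values. SE is the log2 fold change over the root of F. Counting precision is set by 1524842 to 2453648 counts per library, and intervals are 95% and cover counting error only. In simulated counts for the lung comparison, over 13173 genes, 24% of 2-fold and 49% of 4-fold changes were called, with 2 false calls.

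Populations of 1 mouse are paired by animal. Same-mouse deviations correlated at 0.0567 to 0.225 (mean 0.119; different mice -0.0291), over 0.1 in 2 of 5 pairs, across 7155 genes of at least 10 CPM. 129 replicate pairs were compared and 0 were identical. Named genes were the 12 DEGs of smallest adjusted p in each direction, list members that were DEGs, members of known role, genes the study names, and for each difference between tissues the 5 of smallest adjusted p. The members and lists were chosen with earlier results of these data known. Some list members and sorting markers are not reported here. The 13 alternatives tried were DESeq2 1.42.0, limma 3.58.1 (voom), a block for the mouse in 3 fits, other scaling, filters, gene types, sample sets and a threshold test, beside leave-one-out runs. Promoters are RefSeq sequences of GRCm38.p6.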

Additional observations from a re-analysis of the deposited data

Results flagged for a closer look

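Among 224 groups of 5 libraries examined for 114 named genes, 20 held a library far from the other 4 by Dixon's ratio, where chance flags about 5 percent. In ST2- Tregs, mouse 4 was low for Gata3 (139.4 CPM) and high for Igtp (459.8 CPM), Gem (265.7 CPM) and Gpr83 (106.5 CPM). The ST2- library of mouse 2 was high for Cish (230.9 CPM), Rel (265.5 CPM), Batf (194.4 CPM) and Tnfrsf9 (307.9 CPM). In ST2- Tregs of mouse 1 Gpr65 was high (93.82 CPM), Epcam low (0.647 CPM) and Nmur1 alone above 0 (0.647 CPM, 1 count). Pcsk1 was high in the ST2- library of mouse 3 (2.476 CPM) and Cxcl2 in that of mouse 5 (14.52 CPM). In ST2+ Tregs, mouse 4 was high for Ccrl2 (298.3 CPM), Areg (545.0 CPM), Nfkbia (1091 CPM) and Cxcl3 (80.25 CPM). The ST2+ library of mouse 2 was high for Tnfrsf9 (371.9 CPM) and low for Epcam (36.43 CPM), and Ly6c2 was above 0 only in that of mouse 3 (0.448 CPM, 1 count).

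The effect of ST2 differed between lungs and blood, by the interaction contrast in edgeR, for 5 genes. Il2ra, the high-affinity IL-2 receptor chain, had a log2 fold change of 0.30 in lungs and -0.94 in blood (difference 1.24, adjusted p = 0.026). Dusp6, a phosphatase of ERK, had 0.82 and -2.86 (3.69, adjusted p = 0.0271). Polr1a, of RNA polymerase I, had 1.25 and -1.25 (2.50, adjusted p = 0.0319), the nuclear receptor co-repressor Nrip1 0.51 and -0.89 (1.40, adjusted p = 0.0422), and Sh3bgrl 0.07 and 1.09 (-1.02, adjusted p = 0.0422). On leaving out 1 mouse or lung library, Il2ra kept its call in 15 of 20 fits, Dusp6 in 14, Polr1a in 11, Sh3bgrl in 8 and Nrip1 in 2. Of 12 other processing settings, Il2ra kept it in 9, Dusp6, Polr1a and Sh3bgrl in 7 and Nrip1 in 5. Voom called 0 positive and 4 negative differences, where edgeR called 4 positive and 1 negative.

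Between lungs and VAT the 5 smallest adjusted p-values of 18 belonged to Txnip (-0.75 in lungs and 0.58 in VAT, difference -1.33, adjusted p = 0.000992), Il2ra (0.30 and 1.63, -1.33, adjusted p = 0.00148), the transcription factor Klf7 (-0.39 and 1.74, -2.13, adjusted p = 0.00188), the SLAM receptor Slamf6 (-0.58 and -1.94, 1.36, adjusted p = 0.00188) and the carboxypeptidase gene Cpm (0.57 and 1.68, -1.10, adjusted p = 0.00246). In the same 20 fits Txnip and Slamf6 kept their calls in 20, Klf7 and Cpm in 19 and Il2ra in 18. Of the 12 other processing settings, Txnip, Il2ra, Klf7 and Slamf6 kept theirs in 9 and Cpm in 8.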

How the results depend on the processing

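The 103 lung DEGs became 235 with DESeq2, 350 with voom, 382 with voom and the mouse as a block, 251 when only the ST2+ and ST2- libraries of the lungs were fitted, 282 with the block there, 202 in a fit of the 15 lung libraries (94 higher and 108 lower), 58 with all 70 libraries and 26 with the test against 1.5-fold. With the mouse as a replicate block in edgeR there were 125 DEGs, and the block changed the calls of Egr3, Zmym1, Nfkb1 and Pparg among named genes. Median-of-ratios scaling gave 72 higher and 33 lower. Genes differing from spleen numbered 27 (DESeq2), 20 (voom), 29 (voom, block), 4 (only the compared groups) and 17 (these, block), where the main count was 0. Against 5 for blood, DESeq2 gave 86, all gene types 3, all 70 libraries 3, the compared groups 2, these with the block 2 and the 1.5-fold test 0. Voom gave 4 for blood with and without the block, all of them negative differences. For VAT, DESeq2 gave 94, the compared groups 1, these with the block 0 and the 1.5-fold test 0, against 18. ST2- against CD44lo Tregs gave 1223 (voom), 1282 (voom, block) and 396 (1.5-fold test), against 729. DEGs in the lists, 39, became 59 (DESeq2), 87 (voom, with and without block), 25 (all 70 libraries), 75 (compared groups), 82 (these, block), 62 (lung libraries) and 11 (1.5-fold test).

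Leaving out 1 mouse or library gave 35 to 103 lung DEGs, 0 to 1, 0 to 6 and 5 to 32 genes differing from spleen, blood and VAT, 488 to 727 DEGs against CD44lo Tregs and 14 to 38 in the lists. Of 906 values for the 70 named DEGs under other settings, 810 kept their call, 96 lost it and 0 changed direction, and 300 of 1400 lost it on leaving out a mouse or library. Of 572 values for the 44 other named genes, 89 passed the threshold under another setting, as did 8 of 880 on leaving out a mouse or library. The log2 fold change of Mki67 turned to 0.0521 in the blocked fit of the compared groups and was -0.26 to 0.17 on leaving out libraries, and that of Sh3bgrl -0.00096 to 0.15. The causes were not tested. At 220 cells per library, transcripts at a few CPM were at 0 in single libraries, and differences there were often not detectable.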
